A study of Homo sapiens with 43 samples.

Results

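Chromatin immunoprecipitation with sequencing (ChIP-seq) mapped RNA polymerase II phosphorylated at serine 5 of its C-terminal repeats (Ser5P) in SUDHL5, an established cell line of diffuse large B-cell lymphoma (DLBCL) with a germinal-centre origin. The treated cells received 30 nM CDK-TCIP1 for 2 h and gave 2 peak lists. The control cells received vehicle (DMSO) for 4 h and gave 2 peak lists, so that the groups differ in time as well as in compound. Every culture held 0.1% DMSO, and all groups share 1 cell line with no genetic change named in the labels. These 4 samples belong to a series of 43, of which 33 have a peak list. They were chosen by their labels alone: cell line, antibody target, compound and time. A peak was counted at a gene when it reached within 1 kb of either gene end, and the peaks of the 4 lists were also merged into regions when they overlapped by at least 1 bp.

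CDK-TCIP1 joins a CDK9 ligand to a BCL6 ligand in 1 molecule and can so bring the 2 proteins together. CDK9 is the kinase of P-TEFb, which phosphorylates pausing factors and serine 2 of the polymerase tail and so releases paused polymerase into elongation. BCL6 is the zinc-finger repressor that holds germinal-centre B cells in their state and represses cell-cycle arrest, checkpoint and cell-death genes. Serine 5 is phosphorylated mainly by CDK7 of the initiation factor TFIIH as polymerase leaves the promoter, so Ser5P is normally densest just past gene starts, and it becomes sparse along the gene as serine 2 phosphorylation builds up towards the 3' end. The comparison asks where Ser5P polymerase lies soon after CDK9 is brought to BCL6.

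The lists held 15099 and 13290 peaks after CDK-TCIP1 and 17784 and 11782 peaks in DMSO, and covered 18.1 and 15.2 Mb after CDK-TCIP1 and 19.5 and 12.3 Mb in DMSO. Both totals overlapped between the groups (exact two-sided permutation p = 1). The lists give no read totals, so the depth of each library is unknown and the 2 DMSO lists differ more in length than the groups do. Nothing in the labels says that replicates came from separate cultures, so p-values measure only the spread between these samples. With 2 lists against 2 no two-sided permutation p can go below 0.333. Lists from bulk cells cannot tell Ser5P in fewer cells from less Ser5P in each cell. The B-cell markers MS4A1, CD79A, CD79B, PAX5 and CD22 had a Ser5P peak in all 4 lists, none of 5 myeloid markers had one in any list, and of 5 T-cell markers CD3E alone had one, in all 4 lists.

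A larger share of the Ser5P peaks lay at gene starts after CDK-TCIP1, and a smaller share inside genes and at gene 3' ends. Peaks within 1 kb of either gene end made up 48.3% and 56.0% of the CDK-TCIP1 lists and 40.4% and 48.1% of the DMSO lists, or 52.2 ± 5.44% against 44.2 ± 5.48% (SD, n = 2 each). The groups did not overlap, but the lower CDK-TCIP1 list stood only just above the higher DMSO list (difference 7.92 percentage points, exact two-sided permutation p = 0.333). The gene strand, known for 15843 of 20037 protein-coding genes, splits these ends, a split that was chosen after the values were seen. Gene starts took 36.3% and 43.5% of the CDK-TCIP1 peaks and 27.6% and 35.2% of the DMSO peaks. Gene 3' ends took 4.99% and 4.48% of the CDK-TCIP1 peaks and 6.98% and 6.20% of the DMSO peaks. Peaks inside genes and over 1 kb from either end were 36.5% and 30.1% after CDK-TCIP1 and 44.7% and 37.3% in DMSO. As numbers of peaks the last 2 classes overlapped between the groups (exact two-sided permutation p = 0.667 for each), with 754 and 596 peaks at 3' ends after CDK-TCIP1 and 1242 and 730 in DMSO, and 5511 and 4004 peaks inside genes after CDK-TCIP1 and 7957 and 4395 in DMSO. None of the 3 shares overlapped between the groups (exact two-sided permutation p = 0.333 for each), whereas the share between genes did, at 15.2% and 13.9% after CDK-TCIP1 and 14.9% and 14.6% in DMSO.

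**Figure D1:**
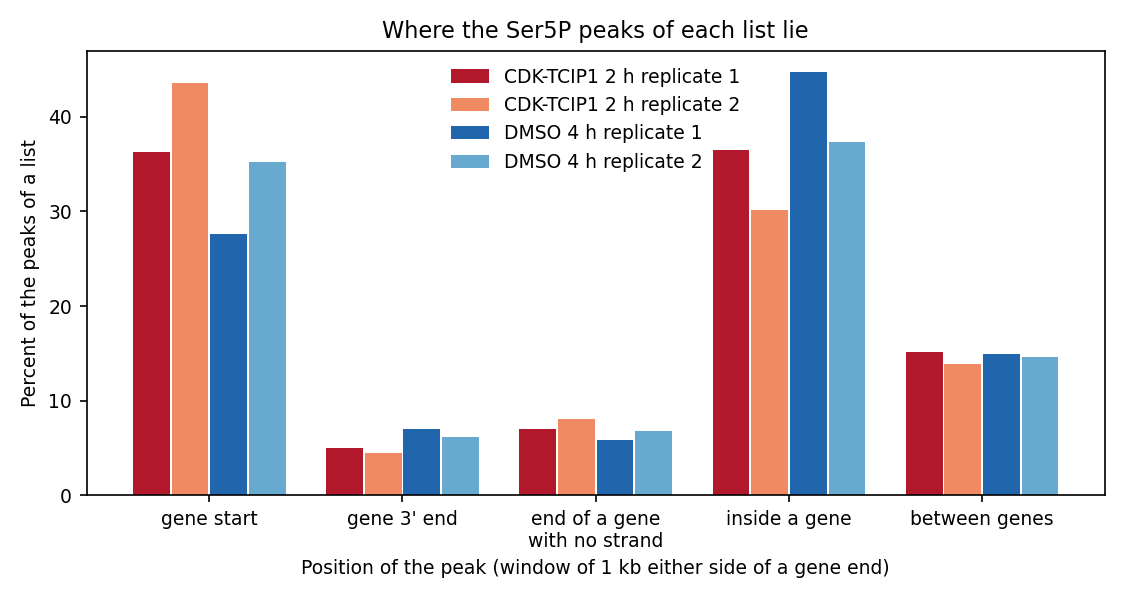
Percent of the peaks of each list (vertical axis) at 5 positions, with the 2 CDK-TCIP1 lists left of the 2 DMSO lists and 1 bar per list. Both CDK-TCIP1 bars are higher than both DMSO bars at gene starts (36.3% and 43.5% against 27.6% and 35.2%) and lower at gene 3' ends and inside genes.

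Counted by gene, a Ser5P peak lay at 6108 and 6506 starts after CDK-TCIP1 and at 5455 and 4673 starts in DMSO, a 1.25-fold difference between geometric means. The number of 3' ends with a peak was 1315 and 1152 after CDK-TCIP1 and 1754 and 1179 in DMSO, and the groups overlapped. Within a list there were 4.64 and 5.65 starts with a peak for every 3' end with a peak after CDK-TCIP1, against 3.11 and 3.96 in DMSO. This ratio was 1.46-fold higher after CDK-TCIP1, with no overlap between the groups (exact two-sided permutation p = 0.333). The first base of the gene lay inside a peak for 32.3% and 35.3% of the strand-annotated genes after CDK-TCIP1 and for 28.2% and 23.2% in DMSO. At 1 kb past the start the shares were 12.3% and 12.3% after CDK-TCIP1 and 9.60% and 7.30% in DMSO. At 5 kb past the start they overlapped, at 2.36% and 1.91% after CDK-TCIP1 and 2.87% and 1.63% in DMSO. At 1 kb past the 3' end the shares were 4.30% and 3.72% of genes after CDK-TCIP1 and 5.91% and 3.65% in DMSO, where DMSO replicate 1 stood above the other 3 lists.

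**Figure D2:**
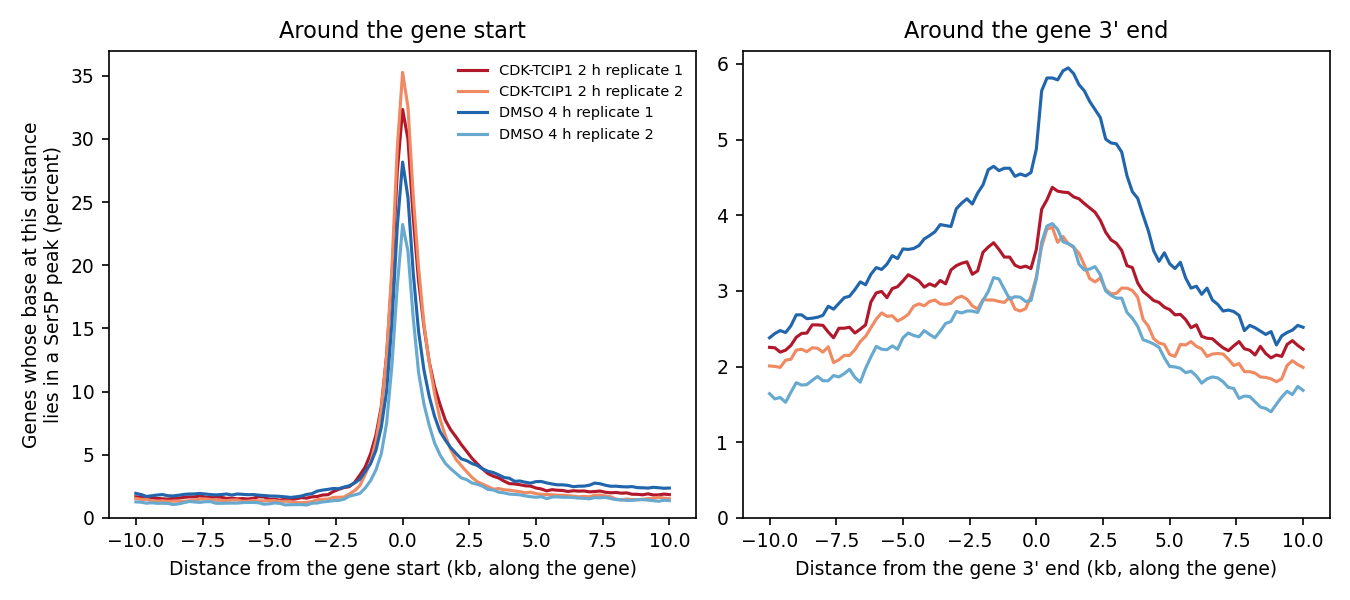
Percent of the 15843 strand-annotated genes whose base at a given distance lies in a Ser5P peak (vertical axis) against the distance in kb along the gene from its start (left) and its 3' end (right), 1 line per list. At the start both CDK-TCIP1 lines peak above both DMSO lines (32.3% and 35.3% against 28.2% and 23.2%), while past the 3' end DMSO replicate 1 is highest and the other 3 lists lie close together.

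At the 4072 starts that had a peak in all 4 lists, the Ser5P peak also reached further on both sides. Its upstream edge lay a median of 532 and 509 bases before the start after CDK-TCIP1 and 438 and 360 bases in DMSO. Its downstream edge lay a median of 817 and 807 bases past the start after CDK-TCIP1 and 659 and 551 bases in DMSO. The downstream edge was further out in both CDK-TCIP1 lists than in both DMSO lists at 1537 starts (37.7% of the starts tested) and nearer at 225 (5.53%). Upstream it was further out at 1442 starts (35.4%) and nearer at 246 (6.04%). Peaks as a whole were wider too, with median widths of 763 and 801 bases after CDK-TCIP1 and 664 and 673 bases in DMSO (exact two-sided permutation p = 0.333).

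Merging gave 24039 regions, of which 6573 were in all 4 lists. Regions in both CDK-TCIP1 lists and neither DMSO list, called gained, numbered 922 (3.84% of all regions), and regions in both DMSO lists and neither CDK-TCIP1 list, called lost, numbered 668 (2.78%). The 2 kinds lay in different places. Of the gained regions, 435 (47.2%) lay at a gene start, 16 at a 3' end and 242 inside a gene. Of the lost regions, 23 (3.44%) lay at a gene start, 84 at a 3' end and 414 (62.0%) inside a gene. Counted the other way, 6.76% of all regions at gene starts were gained and 0.357% lost, while 1.06% of all regions at 3' ends were gained and 5.56% lost. Regions inside genes made up 46.2% of all regions, and 2.18% of them were gained and 3.73% lost. Fewer lists make both calls easier, and the counts moved by over 1.5 times when most lists were left out. Gained regions were 2805 and 3663 without CDK-TCIP1 replicate 1 or 2, and 2445 and 1364 without DMSO replicate 1 or 2. Lost regions were 1270 and 945 without CDK-TCIP1 replicate 1 or 2, and 2257 and 6176 without DMSO replicate 1 or 2, so which kind was commoner depended on the list left out.

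**Figure D3:**
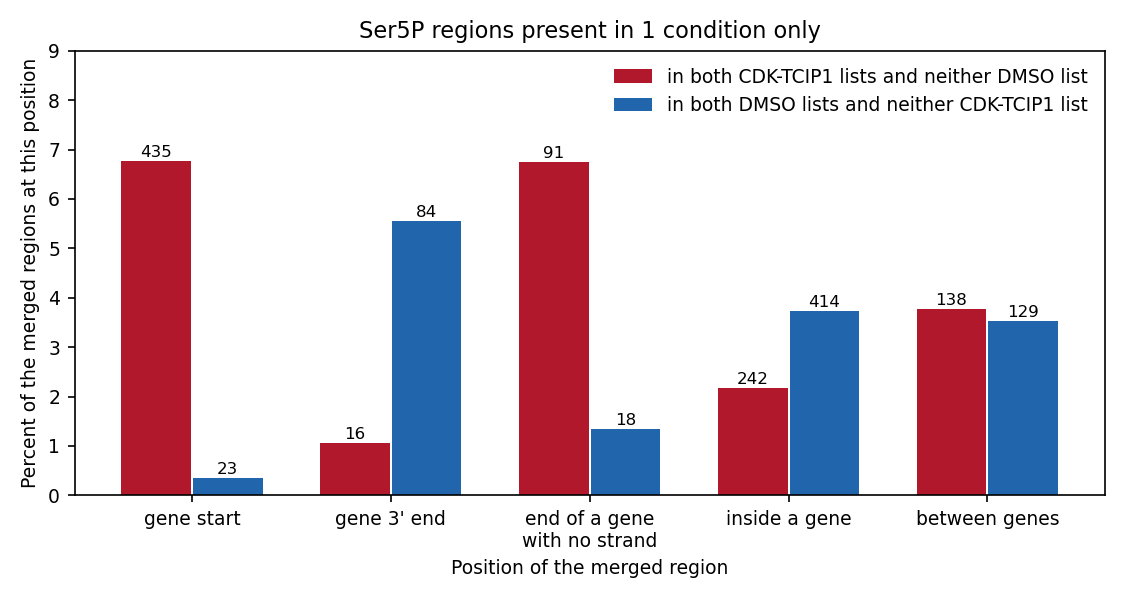
Percent of the merged regions at each position (vertical axis) that were in both CDK-TCIP1 lists and neither DMSO list (red, left) or in both DMSO lists and neither CDK-TCIP1 list (blue, right), with the number of regions above each bar. At gene starts 435 regions were gained and 23 lost, and at 3' ends 16 were gained and 84 lost.

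Gained and lost regions were among the weaker peaks of their lists. Ranked by the authors' q within a list, the gained regions had median ranks of 59.1% and 62.9% down the 2 CDK-TCIP1 lists, and the lost regions 57.9% and 72.9% down the 2 DMSO lists. Regions in all 4 lists ranked higher, with medians between 20.7% and 31.3% down the 4 lists.

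Of 8933 genes with a peak at either end in any list, 5217 had one in all 4 lists, 548 were gained (6.13%) and 52 were lost (0.582%). Gained genes numbered 1055 and 850 without CDK-TCIP1 replicate 1 or 2, and 1553 and 891 without DMSO replicate 1 or 2. Lost genes numbered 111 and 172 without CDK-TCIP1 replicate 1 or 2, and 113 and 277 without DMSO replicate 1 or 2. More genes were gained than lost in each of these 4 settings. At the 7092 starts with a peak in any list, 492 were gained (6.94%) and 25 lost (0.353%). Gained starts were 951 and 728 without CDK-TCIP1 replicate 1 or 2, and 1331 and 800 without DMSO replicate 1 or 2, while lost starts were 58, 118, 54 and 160 in the same order of lists left out.

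The leading gained genes, those with the best ranks by q in the CDK-TCIP1 lists, had varied roles. NOSIP, which binds nitric oxide synthase, had peaks of 391 and 387 bases at its start after CDK-TCIP1, ranked 1195 and 1481, and no peak in its whole length in DMSO. Their upstream edges lay at -143 and -134 bases from the start. APLP2, a relative of the amyloid precursor protein, had peaks of 1348 and 1238 bases after CDK-TCIP1 and none in DMSO. PSME2, a subunit of the proteasome activator PA28, was covered over 3080 and 2985 bases after CDK-TCIP1, at its start and at its 3' end, and not at all in DMSO. DAPP1, a B-cell signalling adaptor, had start peaks of 2983 and 418 bases after CDK-TCIP1, none at either end in DMSO, and 2 short peaks further inside the gene in DMSO replicate 1. The other leading gained genes were DBR1, the enzyme that opens intron lariats, ELAC2, which trims tRNA 3' ends, TNFRSF10D, a decoy receptor for TRAIL, FOXJ3, a forkhead factor, and the neighbours FERRY3 and RAD51AP1. FERRY3 and RAD51AP1 share 1 window and 1 peak, of 976 and 1128 bases after CDK-TCIP1, so they count as 2 genes but rest on the same signal. All 10 of these genes also had a peak in both Ser5P lists of cells treated for 4 h.

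The bases before the starts of 4 of these gained genes, and before those of SESN3, another gained gene, and of SSH3 and PIP5KL1, which were lost at the start, are shown because these are the starts at which a Ser5P peak was held by 1 group only. Each is the 250 bases upstream of the start that RefSeq's promoter table gives on GRCh38.p14. For APLP2 that start lies inside the gene as counted here, so its stretch lies just past the outermost start, under the Ser5P peak. Capitals mark matches, on either strand, to 4 short motifs. GGGCGG is the GC box that SP1 family factors bind in many promoters without a tissue pattern. The box bound by the factor NF-Y was searched as CCAAT. The binding site of the TATA-binding protein, a subunit of the initiation factor TFIID, was searched as TATAAA. The core of the site that BCL6 shares with STAT factors was searched as TTCNNNGAA. Overlapping matches run together. The stretches lie at chr19:49580557-49580806 (- strand), chr11:130070318-130070567 (+ strand), chr14:24146611-24146860 (- strand), chr4:99816577-99816826 (+ strand), chr11:95232476-95232725 (- strand), chr11:67303280-67303529 (+ strand) and chr9:127930778-127931027 (- strand).
NOSIP: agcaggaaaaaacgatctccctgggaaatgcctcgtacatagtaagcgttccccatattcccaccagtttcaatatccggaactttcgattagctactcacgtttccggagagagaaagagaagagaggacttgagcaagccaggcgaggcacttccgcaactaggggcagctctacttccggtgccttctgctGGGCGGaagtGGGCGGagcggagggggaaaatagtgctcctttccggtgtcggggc
APLP2: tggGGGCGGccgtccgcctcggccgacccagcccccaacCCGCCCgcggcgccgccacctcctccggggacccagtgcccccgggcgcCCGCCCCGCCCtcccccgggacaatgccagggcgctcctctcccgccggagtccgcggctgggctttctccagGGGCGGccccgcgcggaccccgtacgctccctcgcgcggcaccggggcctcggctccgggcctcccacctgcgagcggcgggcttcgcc
PSME2: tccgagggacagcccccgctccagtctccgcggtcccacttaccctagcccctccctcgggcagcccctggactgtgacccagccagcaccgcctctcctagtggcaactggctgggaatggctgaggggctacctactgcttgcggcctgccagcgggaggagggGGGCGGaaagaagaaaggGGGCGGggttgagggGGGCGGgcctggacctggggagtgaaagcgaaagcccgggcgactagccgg
DAPP1: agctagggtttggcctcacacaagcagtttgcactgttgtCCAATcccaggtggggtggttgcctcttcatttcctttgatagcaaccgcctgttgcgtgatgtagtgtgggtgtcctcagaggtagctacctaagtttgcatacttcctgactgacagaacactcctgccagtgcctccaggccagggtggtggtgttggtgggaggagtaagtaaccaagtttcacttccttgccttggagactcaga
SESN3: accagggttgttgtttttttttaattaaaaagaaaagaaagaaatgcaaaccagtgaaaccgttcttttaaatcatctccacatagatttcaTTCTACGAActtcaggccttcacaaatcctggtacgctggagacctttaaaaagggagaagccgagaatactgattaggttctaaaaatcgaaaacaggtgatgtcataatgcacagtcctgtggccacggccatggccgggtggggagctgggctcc
SSH3: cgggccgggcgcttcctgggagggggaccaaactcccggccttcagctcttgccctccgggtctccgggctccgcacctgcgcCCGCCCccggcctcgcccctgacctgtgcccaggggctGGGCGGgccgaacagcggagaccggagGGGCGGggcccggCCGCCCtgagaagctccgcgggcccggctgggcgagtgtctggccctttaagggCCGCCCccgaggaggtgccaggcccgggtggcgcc
PIP5KL1: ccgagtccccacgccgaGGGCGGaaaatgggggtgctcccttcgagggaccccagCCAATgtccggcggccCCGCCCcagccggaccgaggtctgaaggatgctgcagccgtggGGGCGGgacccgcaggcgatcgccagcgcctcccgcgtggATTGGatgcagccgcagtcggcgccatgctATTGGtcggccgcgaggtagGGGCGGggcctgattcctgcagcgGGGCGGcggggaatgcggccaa

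Of these 7, TTCNNNGAA stands in SESN3 alone. Over the 492 gained starts it stood in 4.47% of the promoters, against 5.45% of the 4072 promoters with a peak in all 4 lists and 6.12% of all 15843 promoters of this length. GGGCGG stood in 71.7% of gained promoters, 68.4% of those with a peak in all 4 lists and 56.0% of all promoters. The CCAAT box stood in 36.4% of gained promoters, 37.3% of those with a peak in all 4 lists and 34.5% of all promoters. The letters TATAAA stood in 3.46% of gained promoters, 5.92% of those with a peak in all 4 lists and 9.23% of all promoters. The gained promoters had a median of 21 CpG dinucleotides and 65.2% G and C, the promoters with a peak in all 4 lists 22 and 65.2%, and those with no peak 10 and 59.2%. The 25 promoters of lost starts held TTCNNNGAA in 8%, GGGCGG in 52%, CCAAT in 20% and TATAAA in 0%. Their medians were 13 CpG dinucleotides and 65.6% G and C. A match of letters is a description of the sequence and does not show that a factor binds there.

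Among the 10 leading lost genes, 4 were lost at the 3' end. MYH14, a non-muscle myosin heavy chain, had no peak after CDK-TCIP1 and peaks of 4236 and 1727 bases at its 3' end in DMSO, over 100 kb from its start, which had no peak in any list. Short peaks remained further past that 3' end after CDK-TCIP1. SH3GLB2 had none after CDK-TCIP1 and peaks of 4594 and 816 bases at its 3' end in DMSO. The neighbour NUP188, a nuclear pore subunit on the other strand, ends in the same peak and had a start peak in all 4 lists. SMIM35 had no gene-end peak after CDK-TCIP1 and peaks of 7004 and 3954 bases at its 3' end in DMSO, and kept peaks inside the gene in all 4 lists. ZNF768, a zinc-finger protein, was likewise lost at the 3' end. At the start, losses were found at SSH3, a cofilin phosphatase, with no peak after CDK-TCIP1 and 2459 and 685 bases in DMSO, at PIP5KL1, with none after CDK-TCIP1 and 1472 and 733 bases in DMSO, and at MAMDC4, C17orf99 and PDE8B, a cAMP phosphodiesterase. USP44, a deubiquitinase, was lost at an end whose strand is not known. ZNF768, C17orf99 and USP44 kept peaks over 1 kb from their ends in both CDK-TCIP1 lists. ZNF768 was covered over 2476 and 1601 bases after CDK-TCIP1 and 4028 and 1207 bases in DMSO. For C17orf99 the values were 3808 and 2624 against 6892 and 8017 bases, and for USP44 1974 and 2204 against 4525 and 2368 bases. MAMDC4 kept 1 peak of 341 bases in CDK-TCIP1 replicate 1. Peaks at the ends of USP44, C17orf99, PDE8B and PIP5KL1 were present again in 1 of the 2 Ser5P lists at 4 h.

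Loss was commoner than gain at 3' ends. Of 2134 3' ends with a peak in any list, 45 were gained (2.11%) and 116 lost (5.44%). Gained 3' ends were 129 and 158 without CDK-TCIP1 replicate 1 or 2, and 151 and 70 without DMSO replicate 1 or 2. Lost 3' ends were 212 and 160 without CDK-TCIP1 replicate 1 or 2, and 200 and 544 without DMSO replicate 1 or 2, so losses outnumbered gains in each setting, by only 160 to 158 without CDK-TCIP1 replicate 2. Of 1517 3' ends with a peak in any list and over 1 kb from any strand-annotated gene start window, 25 were gained and 103 lost. Of the 116 genes that lost the 3' end, 74 (63.8%) kept a peak at their own start in all 4 lists, a share close to that of all genes with a 3' peak (59.7%). Over the zone from a 3' end to 10 kb past it, outside other genes and away from starts, 43 regions were gained and 125 lost of 2272, and this zone held 7.53% and 6.59% of all covered bases after CDK-TCIP1 against 11.1% and 9.67% in DMSO. The groups did not overlap (difference -3.31 percentage points, exact two-sided permutation p = 0.333).

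Several named genes kept a start peak in all 4 lists and had a peak within 1 kb of the 3' end in DMSO only. They were picked after their values were seen. RPS23, a small ribosomal subunit protein, was covered over 4551 and 2204 bases after CDK-TCIP1 and 4774 and 3422 bases in DMSO. The gene is 5 kb long, and in both CDK-TCIP1 lists the start peak ended short of its 3' window. In DMSO replicate 1 there was no separate 3' peak either, and the single peak ran from the start into that window. LDHA, lactate dehydrogenase A, had start peaks of 2887 and 2841 bases after CDK-TCIP1 and 3286 and 3079 bases in DMSO, and a 3' peak in DMSO only. Peaks covered 2887 and 2841 bases of LDHA after CDK-TCIP1 and 5300 and 4592 bases in DMSO, in 1 peak per list after CDK-TCIP1 and 4 peaks per list in DMSO. PAX5, the B-lineage transcription factor, carried 4 and 5 peaks over 16031 and 14384 bases after CDK-TCIP1, and 27 and 12 peaks over 33981 and 19769 bases in DMSO. NFKB2, the precursor of the p52 NF-kB subunit, CTDSP2, a phosphatase of the polymerase tail, and RPL9 lost the 3' end in the same way. NELFCD, a subunit of the pausing factor NELF, and DIABLO, the mitochondrial antagonist of IAP proteins, lost the 3' end too, without a start peak in all 4 lists. The 3' end of 2 listed genes was gained instead. CDKN1B, the CDK inhibitor p27, was covered over 10532 and 8090 bases after CDK-TCIP1 and 2772 and 1376 bases in DMSO, and CXCR5, the follicular chemokine receptor, over 6096 and 4404 bases after CDK-TCIP1 and 548 and 994 bases in DMSO.

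Over 1 kb from any gene end, the best-ranked lost region was chr7:5517489-5519948, between FBXL18 and the beta-actin gene ACTB, with no peak after CDK-TCIP1 and 2460 and 1417 bases in DMSO, where it ranked 827 and 739. A pair of lost regions, chr19:10214826-10216659 and chr19:10217274-10218071, lay 4774 and 3362 bases past the 3' end of S1PR2, the receptor that confines germinal-centre B cells, and was absent after CDK-TCIP1. The other lost regions named were chr9:37387139-37391117, which lies 28990 bases past ZCCHC7, and chr5:78721686-78722293, which lies 54916 bases past ARSB. The leading gained regions were chr11:47915339-47919648, with 4273 and 1859 bases after CDK-TCIP1 and none in DMSO, chr3:13451672-13452764, chr1:46333789-46334134, and 1 each inside RASSF5 and SPACA6.

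In the 6573 regions of all 4 lists, the covered length was compared after each list was centred on its median. limma called 0 regions wider (0.0%) and 0 narrower (0.0%) at an adjusted p under 0.05, with 715 regions at an unadjusted p under 0.05 and a smallest adjusted p of 0.0771. Without CDK-TCIP1 replicate 2, limma called 29 regions narrower. Uncentred, 2290 regions (34.8%) were longer in both CDK-TCIP1 lists than in both DMSO lists and 635 (9.66%) were shorter. The direction differed by position. At gene starts 44.1% were longer and 4.70% shorter, with median lengths of 1391 and 1360 bases after CDK-TCIP1 and 1126.5 and 904 bases in DMSO. At 3' ends 12.0% were longer and 34.4% shorter, with medians of 1799.5 and 1410 bases after CDK-TCIP1 and 2518 and 1661.5 bases in DMSO. Inside genes the figures were 21.6% longer and 13.8% shorter. With the lists centred, the median log2 change was 0.02 at gene starts, -0.56 at 3' ends and -0.22 inside genes. The centred change was positive at 52.4% of the regions at starts, 18.9% at 3' ends and 33.4% inside genes. So the regions at starts did not lengthen beyond the shift of the whole lists.

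The 5 regions with the smallest limma p for shortening included 3 at gene 3' ends. The region that begins at the MYH14 3' end and runs past it spanned 417 and 321 covered bases after CDK-TCIP1 and 4236 and 2527 bases in DMSO (log2 difference -3.46 ± 0.30 SE, limma adjusted p = 0.0771). A region 4121 bases from an end of POU2AF1, the B-cell coactivator of octamer factors, had 466 and 327 bases after CDK-TCIP1 and 4218 and 2738 bases in DMSO. Regions inside EZR, the membrane linker ezrin, at the ends of PEA15 and DCAF8, and at the 3' end of DNMT1, the maintenance DNA methyltransferase, followed. The DNMT1 region had 623 and 453 bases after CDK-TCIP1 and 2884 and 2297 bases in DMSO. On the longer side, the leading regions were at ARHGAP25, a GTPase-activating protein, MBNL3 and CELF2, which encode RNA-binding proteins, UGCG, glucosylceramide synthase, and HIVEP2, a zinc-finger factor. ARHGAP25 had 2343 and 1973 bases after CDK-TCIP1 and 373 and 417 bases in DMSO (log2 difference 2.15 ± 0.32 SE, limma adjusted p = 0.179), and UGCG had 2028 and 2077 bases after CDK-TCIP1 and 562 and 370 bases in DMSO. None of the 10 passed the adjusted threshold.

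**Figure D4:**
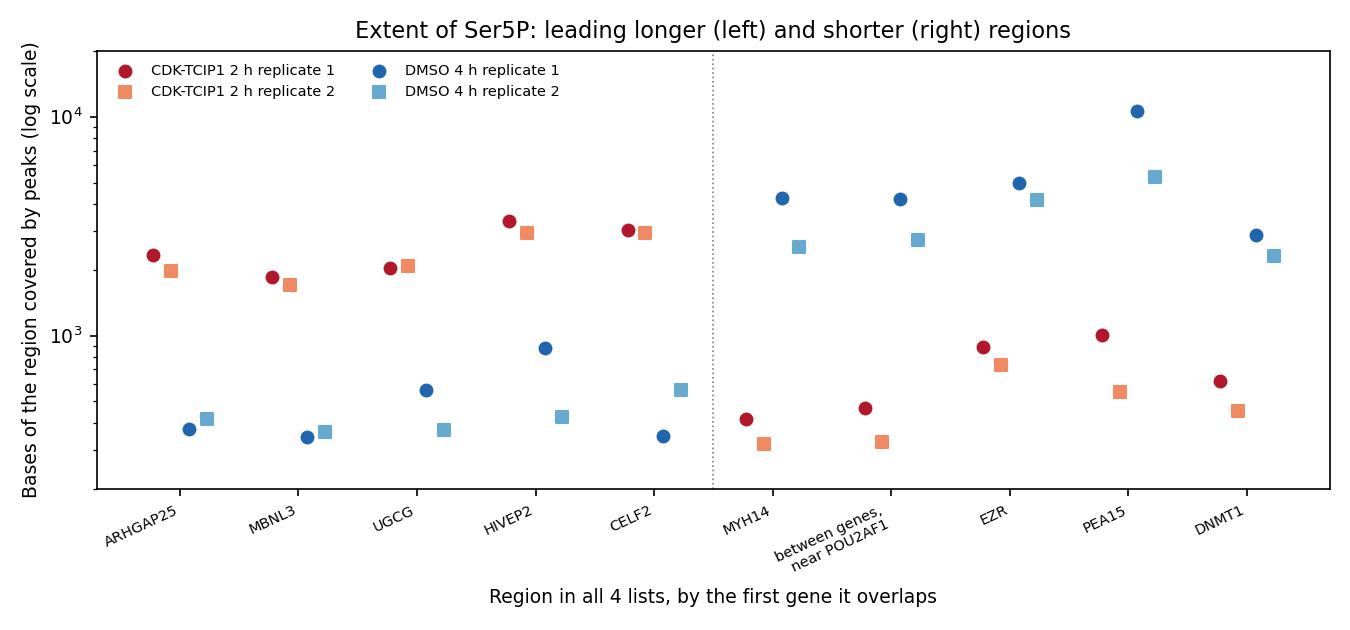
Bases covered by Ser5P peaks (vertical axis, log scale) in the 5 regions with the smallest limma p for lengthening (left of the dotted line) and the 5 for shortening (right), 1 point per list, CDK-TCIP1 lists left of DMSO lists. In all 10 regions the 2 CDK-TCIP1 points and the 2 DMSO points do not overlap, as at MYH14 with 417 and 321 bases against 4236 and 2527, but none passed an adjusted p of 0.05.

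The strongest peaks of the 4 lists were shared. The peak at the POLR2A start, which also lies at the ends of its neighbours ZBTB4 and SLC35G6, ranked 4 and 1 after CDK-TCIP1 and 3 and 2 in DMSO. TSPOAP1 ranked 7 and 4 after CDK-TCIP1 and 2 and 1 in DMSO, and CXCR4, the chemokine receptor of the germinal-centre dark zone, 2 and 3 after CDK-TCIP1 and 5 and 14 in DMSO. The widest regions lay at ITPKB, a B-cell inositol kinase, with 31.8 and 22.8 kb covered after CDK-TCIP1 and 41.8 and 35.3 kb in DMSO, and at IRAG2, S1PR2, RBM38 and the cluster of MOB3A, IZUMO4 and AP3D1. In 4 of these 5 regions both CDK-TCIP1 lists covered fewer bases than both DMSO lists. The exception was S1PR2, with 24.5 and 21.3 kb after CDK-TCIP1 and 27.4 and 23.8 kb in DMSO, where the groups overlapped.

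Gene lists were described by counts of genes with a gene-end peak, set beside all 20037 protein-coding genes, of which 5217 had one in all 4 lists and 548 were gained. The germinal-centre list had a peak in all 4 lists at 27 of 32 genes and gained or lost none. Of 26 genes that BCL6 is known or held to repress, 9 had a peak in all 4 lists, 14 had none in any list, among them PRDM1, IRF4, CD44, CD80 and S1PR1, and 1 was gained, CHEK1, the checkpoint kinase, with start peaks of 630 and 468 bases after CDK-TCIP1 and none in DMSO. Among 19 CDK inhibitor and arrest genes, 14 were in all 4 lists and 1 was gained, SESN3, a stress sensor that restrains mTORC1, with 988 and 773 bases after CDK-TCIP1 and none in DMSO. Of 26 pro-apoptotic genes, 12 were in all 4 lists, none was gained and 1, DIABLO, was lost, at its 3' end. DIABLO kept a peak after CDK-TCIP1, of 556 and 565 bases, with its edge 1279 and 1296 bases past the start and so outside the window. DMSO replicate 1 had a peak edge 1192 bases past the start, and DMSO replicate 2 had only a 3' peak. Of 10 anti-apoptotic genes 7 were in all 4 lists and none was gained or lost. FOXO3, a forkhead factor of stress and cell-death genes, was the single gained gene of 14 in its list, with peaks of 2586 and 474 bases after CDK-TCIP1 and none in DMSO. IER3 among 30 immediate-early genes and CTBP1 among 17 BCL6 corepressor genes were also gained. CTBP1 nevertheless had a peak near its start in all 4 lists. Its summit lay 1775 and 1739 bases past the start after CDK-TCIP1 and 1788 and 1781 bases in DMSO. In DMSO the nearest peak edge lay 1638 and 1665 bases past the start, outside the 1 kb window. At starts alone, MXD4, an antagonist of MYC, and RPS25 were gained besides. Of 80 cytoplasmic ribosomal protein genes 76 were in all 4 lists, and of 20 genes silent in B cells none was in all 4 lists. Peaks stood in all 4 lists at 15 of 21 genes of NF-kB, 17 of 22 of MYC and growth, 14 of 24 of pausing and initiation, 11 of 16 heat shock, 6 of 12 plasma-cell and 5 of 8 genes of phosphatases of the polymerase tail, with no gene gained or lost in these lists. Among markers of other cells they stood at 3 of 14 T-cell genes and 1 of 12 myeloid genes.

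**Figure D5:**
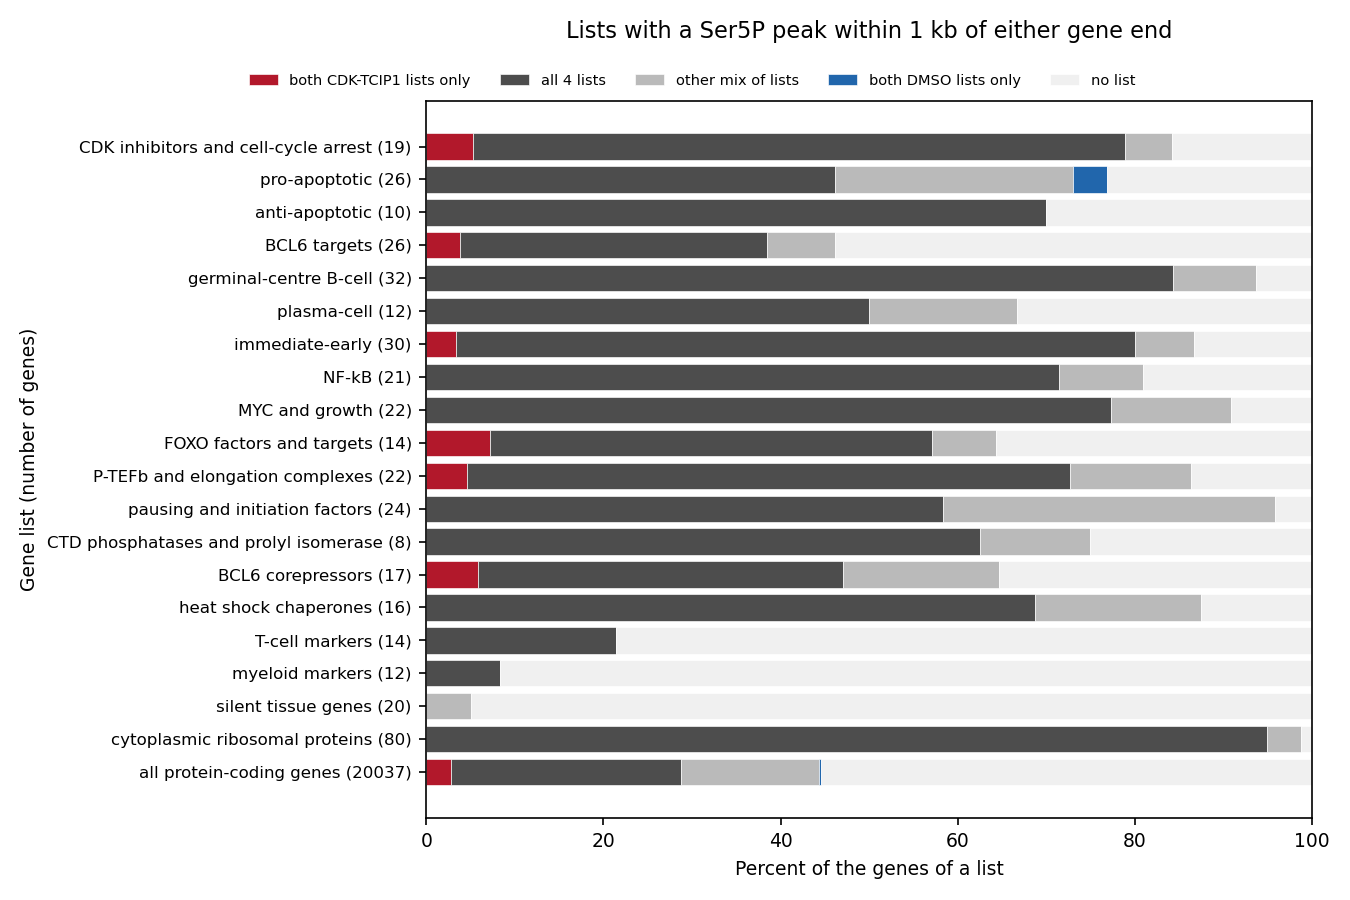
Percent of the genes of each list (horizontal axis; the number of genes is in brackets) whose gene ends had a Ser5P peak in both CDK-TCIP1 lists only, in all 4 lists, in another mix of lists, in both DMSO lists only, or in no list. Most listed genes with a peak had it in all 4 lists (76 of 80 ribosomal protein genes, 27 of 32 germinal-centre genes), and at most 1 gene per list was gained.

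The width of the best-ranked gene-end peak was also compared among the genes in all 4 lists, a count added after the values were seen. Over 5217 such genes, the peak was wider in both CDK-TCIP1 lists than in both DMSO lists at 2205 (42.3%) and narrower at 318 (6.10%). Of the 9 BCL6-repressed genes in all 4 lists, 8 were wider and none narrower. CD69, an activation antigen, had 6680 and 8347 bases after CDK-TCIP1 and 5328 and 3738 bases in DMSO, and ID2, an inhibitor of E proteins, 2670 and 2916 bases after CDK-TCIP1 and 2426 and 1816 bases in DMSO. Of 14 arrest genes, 7 were wider, among them CDKN2A, CDKN2B, CDKN2C and CDKN2D, and CCNG2 was narrower, with 4732 and 4293 bases after CDK-TCIP1 and 7057 and 6696 bases in DMSO. Of 12 pro-apoptotic genes 6 were wider, including PMAIP1, BAX and APAF1, and of 7 anti-apoptotic genes 1 was, BCL2L1. Among 23 immediate-early genes 8 were wider. DUSP6, a phosphatase of ERK, had 3140 and 3168 bases after CDK-TCIP1 and 1656 and 866 bases in DMSO, and DUSP5 had 6452 and 3530 bases after CDK-TCIP1 and 1804 and 540 bases in DMSO. The 27 germinal-centre genes divided evenly, with 6 wider and 6 narrower. EBF1, a B-lineage factor, had 12038 and 7785 bases after CDK-TCIP1 and 3131 and 2342 bases in DMSO, whereas TCF3, an E protein, had 2496 and 2538 bases after CDK-TCIP1 and 11171 and 8613 bases in DMSO, and S1PR2 had 7594 and 6847 bases after CDK-TCIP1 and 18832 and 14017 bases in DMSO. This width is that of 1 peak per list, so a stretch split into several peaks can count as narrower. The best-ranked peak can also be a different one in each group. That was so at CDKN1B, which counted as wider among both the BCL6-repressed and the arrest genes. The whole S1PR2 region held 24.5 and 21.3 kb after CDK-TCIP1 and 27.4 and 23.8 kb in DMSO, and these overlapped. Of 15 elongation genes 9 were wider and none narrower, and of 76 ribosomal protein genes 23 were wider and 4 narrower.

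Among genes of particular interest for BCL6 and CDK9, most had a Ser5P peak in both groups. BCL6 itself had a gene-end peak of 16618 and 13485 bases after CDK-TCIP1 and 16253 and 14559 bases in DMSO, and the groups overlapped. The pro-apoptotic BH3-only genes BCL2L11, which encodes BIM, and PMAIP1, which encodes NOXA, had peaks in all 4 lists, of 7409 and 6279 bases after CDK-TCIP1 and 8125 and 6247 bases in DMSO at BCL2L11, and of 1923 and 2579 bases after CDK-TCIP1 and 1682 and 1660 bases in DMSO at PMAIP1. BBC3, which encodes PUMA, had a strong peak in every list, but that of DMSO replicate 1 began 1093 bases inside the gene and so fell outside the 1 kb window. The best-ranked gene-end peak of CDKN1B was not the same peak in the 2 groups. After CDK-TCIP1 it had 4044 and 3450 bases and ranked 772 and 672. Its summit lay 8636 and 8558 bases past the start, beyond the 3' end of this 5.0 kb gene. In DMSO it had 2177 and 878 bases and ranked 2282 and 6292, with its summit 6 and 856 bases past the start. CDKN1A, the CDK inhibitor p21, had no peak within 1 kb of its outermost ends. Inside the gene it had 2230 and 1503 covered bases after CDK-TCIP1 and 987 and 0 bases in DMSO, and a CDK9 peak stood at a gene end in all 4 CDK9 lists of treated SUDHL5 cells. RefSeq's promoter table gives CDKN1A a start just past chr6:36678713, inside the gene as counted here, which begins at chr6:36676463. The nearest Ser5P edges lay 2035 and 2314 bases past the outermost start after CDK-TCIP1 and 2995 bases in DMSO replicate 1. PRDM1 and IRF4, which drive plasma-cell differentiation, had no gene-end peak in any list. MYC had a peak of 3589 and 2694 bases after CDK-TCIP1 and of 3069 and 447 bases in DMSO, overlapping between the groups. HEXIM1, the P-TEFb inhibitor, had 3498 and 4846 bases after CDK-TCIP1 and 2994 and 2885 bases in DMSO. FOS, JUN, EGR1, CD79A and TNFRSF10B, a TRAIL receptor, had peaks in all 4 lists.

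The other lists of SUDHL5 give the state of these sites in other samples. The Ser5P lists at 4 h share the DMSO lists of the comparison, so only presence is given. At 4 h a peak stood at 36.2% and 83.1% of the 492 starts gained at 2 h, where all starts held one in 31.0% and 41.5%. All starts include those without a peak in any list. Counted by gene, 35.8% and 81.2% of the gained genes held a 4 h peak. Of the genes with a peak in any of the 4 lists, 68.5% and 87.8% held one. At 4 h a peak also stood at 7.76% and 29.3% of the 116 3' ends lost at 2 h. All 3' ends, with or without a peak in the 4 lists, held one in 5.78% and 7.52%. The 4 h lists had 5.38 and 5.52 starts with a peak for every 3' end with one. Polymerase phosphorylated at serine 2 (Ser2P) was present at 68.3% and 68.3% of the lost regions in its DMSO lists and at 10.2% and 35.0% in its 2 h CDK-TCIP1 lists, which held 6519 and 16170 peaks. Of the 125 lost regions in the 3' zone, 85.6% and 85.6% held Ser2P in DMSO, and 17.6% and 52% after 2 h of CDK-TCIP1. The share over all regions of the 3' zone was not counted. Of the gained regions, 8.13% and 53.1% held Ser2P after 2 h of CDK-TCIP1, and 44.9% and 23.9% in DMSO. The set of all 24039 regions held Ser2P at 18.0% and 44.2% after 2 h of CDK-TCIP1 and at 54.5% and 41.7% in DMSO.

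Genes that gained CDK9 at 2 h mostly already carried Ser5P. Of 1517 genes gained by CDK9 antibody ab239364, 71.9% had a Ser5P peak in all 4 lists, 72 (4.75%) gained Ser5P and 3 lost it. Of 1265 genes gained by CDK9 antibody CST2316S, 75.4% had Ser5P in all 4 lists, 41 (3.24%) gained it and 2 lost it. Over all 20037 genes, 26.04% had Ser5P in all 4 lists, 2.73% gained it and 0.26% lost it. Over genes with any Ser5P peak 6.13% gained it and 0.582% lost it. Read from the other side, CDK9 by ab239364 was gained at 13.1% of the Ser5P-gained genes and 20.9% of the genes with Ser5P in all 4 lists. CDK9 by CST2316S was gained at 7.48% of the Ser5P-gained genes and 18.3% of the genes with Ser5P in all 4 lists. The base for these shares is 1517 genes gained by ab239364 and 1265 by CST2316S among all 20037 genes. NOSIP, APLP2, PSME2, DBR1 and SESN3 had no gene-end CDK9 peak in any of the 4 CDK9 lists of treated SUDHL5 cells, whereas FERRY3 and RAD51AP1 had one in all 4 and also in both DMSO lists of ab239364. FOXO3 had one in both treated ab239364 lists and in no other CDK9 list of SUDHL5.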

How the data were processed

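Peak lists of Ser5P ChIP-seq (antibody ab5131) were read for 2 CDK-TCIP1 and 2 DMSO samples. The submitters' processing notes name the builds dm6 and hg38 and the tools MACS2, Bowtie2, Trim Galore, FastQC, Picard, SAMtools, deepTools and bedtools. Tool versions, control libraries and blacklists were not given in the sources used here. Per peak, the authors deposited a fold enrichment (a ratio to background) and a -log10 q. These values served to order peaks inside 1 list and went into no comparison of levels. No source states a scaling between lists. A list made from more reads can hold more and wider peaks, and this was not tested. The 5 peaks on unplaced contigs were left out.

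Genes were the 20037 protein-coding genes of RefSeq on GRCh38.p14, the build hg38 names. Strand came from a RefSeq promoter table that matched 15843 of them, and the other 4194 were counted without strand. Peaks that reached within 1 kb of a gene end were counted, and regions were merged at 1 bp. Group means were compared by exact two-sided permutation tests. Covered length was fitted with limma 3.58.1 (R 4.3.3) on log2 bases, Benjamini-Hochberg adjusted over 6573 regions. Gained and lost calls have no test.

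Named genes were 16 fixed genes, the 10 best-ranked gained and lost genes, the 5 best-ranked gained and lost regions far from gene ends, gained or lost list members, the 5 regions leading each side of the fit, and the strongest genes and widest regions. Some genes and 1 gene list are not reported here. Other list members were named after their values were seen. The members and lists were chosen with earlier results of these data known. Alternatives were a stricter q, equal list lengths, 50% cover, other windows, summits, no centring, longer regions, a replicate block and leaving out each list. Those for gene starts and 3' ends were added after the data were seen.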

Additional observations from a re-analysis of the deposited data

How the results depend on the processing

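The share of peaks at gene ends (difference 4.05 to 11.8 percentage points when each list was left out) and the log2 ratio of starts to 3' ends with a peak (0.37 to 0.72) stayed higher after CDK-TCIP1 under every alternative run. Totals did not keep a direction. The log2 difference in peaks per list was -0.03, but 0.22 with -log10 q of at least 5, and -0.33 to 0.27 when a list was left out, turning positive without CDK-TCIP1 replicate 2 (0.06) or DMSO replicate 1 (0.27). The log2 difference in covered bases ranged from -0.24 to 0.43 and turned negative without CDK-TCIP1 replicate 1 (-0.03) or DMSO replicate 2 (-0.24). With -log10 q of at least 5, lost regions were 309, gained genes 843 and gained starts 746. With 50% of a region covered, gained regions were 1573. At the gene start alone, lost genes were 25, and by summits lost starts were 40. The causes of these shifts were not tested. Leaving out a list gave 1364 to 3663 gained and 945 to 6176 lost regions, 850 to 1553 gained and 111 to 277 lost genes, 728 to 1331 gained and 54 to 160 lost starts, and 70 to 158 gained and 160 to 544 lost 3' ends. It gave 0 to 29 narrower regions, the 29 without CDK-TCIP1 replicate 2, and 0 wider. Without centring, with -log10 q of at least 5 or with regions of at least 500 bases, limma called 0 in either direction. None of the named genes changed direction under these alternatives, but a gene without a difference in the main run could not do so. The share of lists with a peak, treated minus DMSO, changed at 14 of 47 genes with the 2.5 kb window. It changed at 14 with the whole gene, 9 by summits, 6 with -log10 q of at least 5 and 5 at the gene start alone. With equal list lengths it stayed the same at all 47.

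The labels give both groups replicates 1 and 2 but do not say that numbers mark shared cultures. Same-numbered lists deviated together (r = 0.243 over 6573 regions), a hint from 2 pairs only. With the replicate block limma called 41 regions wider and 122 narrower, and the exact permutation p within pairs was 0.5 for the share at gene ends (7.92 percentage points) and for the ratio of starts to 3' ends (0.54). Without read totals, what depth contributes cannot be told.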
